A study of Mus musculus with 17 samples.

Results

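Distal sites that held an accessibility peak in every sample of the experiment are described here, together with the way LPS changed their order. ATAC-seq, in which a transposase cuts open DNA, had been performed on bone marrow-derived macrophages (BMDMs) of mouse. The cells came from wild-type (WT) male mice or from male mice lacking Nur77 in the whole body (KO), the nuclear receptor encoded by Nr4a1. WT mice were littermates of KO mice, both genotypes were 6 to 12 weeks of age, and bone marrow was grown for 7 days in medium conditioned by L929 cells. The KO line was made by crossing floxed Nr4a1 mice with C57Bl6/J mice expressing Cre from the CMV promoter, after which Cre was bred out, although the labels still mark KO samples as cre. Cells of either genotype were left without lipopolysaccharide (LPS, 0 h) or received 100 ng/ml LPS for 1 h or 18 h. Each of the 6 groups held 3 peak lists, except WT at 1 h, which held 2 lists named replicate 1-2 and replicate 3. Whether the lists of a group came from separate mice is not given, so p-values measure the spread between lists. Cultures were measured in bulk, so a change in the number of cells of a type and a change per cell cannot be told apart.

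The sites were selected on their measured peaks. In each of the 17 lists the peaks were ordered by −log10 p-value, the best were kept, as many as the shortest list held, and overlapping peaks were merged over the lists into 41150 sites. A site became a constitutive distal site when every list held a peak there and no part of it came within 1 kb of where a protein-coding transcript starts (TSS). Of the 29583 distal sites, 3914 had a peak in all 17 lists, 1543 in 16 lists and 6489 in a single list. A further 6490 sites had a peak in all 17 lists and touched a promoter, so 10404 sites could be ranked in every list. Presence in all lists and a rank no worse than the end of a list were therefore fixed by the choice, and neither is a finding. Sites are named by the protein-coding gene with the nearest TSS, which does not show that they act on it.

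**Figure D1:**
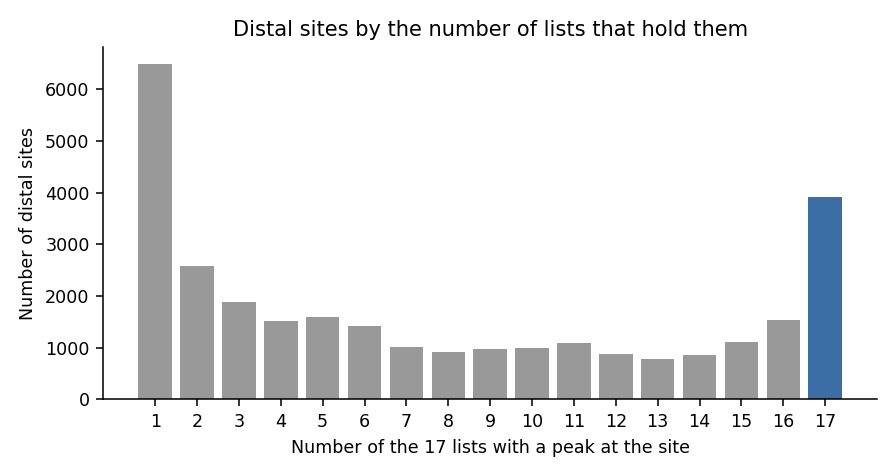
Number of distal sites (vertical axis) by the number of peak lists that hold a peak there (horizontal axis, 1 to 17 lists). The first bar holds 6489 sites in 1 list, the lowest bar 784 sites in 13 lists, and the last bar, the constitutive distal sites, 3914.

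Macrophage enhancers are opened during differentiation by lineage factors such as PU.1 and C/EBP, which displace nucleosomes and let other factors bind. LPS is sensed by TLR4, and signaling through this receptor activates NF-kB and AP-1 within minutes and interferon-regulated factors later. Many enhancers used in this response are already open in resting macrophages, so stimulation changes the strength of accessibility there rather than its presence.

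The values reported are ranks inside a list, since the files give no read count per site. Rank 1 is the peak with the smallest p-value, tied peaks share the middle of their ranks, and a low number means strong accessibility. A shift is the log2 ratio of the rank before to the rank after, averaged over both genotypes, so +1 is a rank 2 times nearer the top of the list. Ranks sum to the same total in every list, so sites that gain must push others down, and a shift is relative to the other peaks. Shifts were tested with limma over all 10404 sites, with Benjamini-Hochberg adjusted p-values under 0.05 as a call.

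Windows of 201 bases centered on the summit are shown for 7 members whose ranks moved furthest or carried a motif that moved as a class (GRCm38, plus strand). Capitals mark motif letters on either strand. The Sfn, Rab11fip4 and Traf2 windows carry NF-kB letters and gained rank with LPS. The first 2 of these also hold AP-1 letters (TGACTCA or TGAGTCA), as does the Stx3 window. The Ctns window, in a gene for a lysosomal transporter, holds AP-1 letters and lost rank at 18 h. The Tex44 window moved up and then down with none of the 9 motifs, and the Rpusd4 window is a repeat.
Sfn, chr4:133614464-133614664: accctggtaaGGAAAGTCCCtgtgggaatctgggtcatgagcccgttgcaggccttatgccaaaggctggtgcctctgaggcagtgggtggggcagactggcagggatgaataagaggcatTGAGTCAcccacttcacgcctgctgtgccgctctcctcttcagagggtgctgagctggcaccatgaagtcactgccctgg
Rab11fip4, chr11:79611104-79611304: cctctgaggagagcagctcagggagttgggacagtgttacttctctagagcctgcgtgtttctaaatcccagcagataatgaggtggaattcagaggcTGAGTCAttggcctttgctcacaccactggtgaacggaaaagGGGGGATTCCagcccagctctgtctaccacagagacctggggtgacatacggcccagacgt
Traf2, chr2:25534305-25534505: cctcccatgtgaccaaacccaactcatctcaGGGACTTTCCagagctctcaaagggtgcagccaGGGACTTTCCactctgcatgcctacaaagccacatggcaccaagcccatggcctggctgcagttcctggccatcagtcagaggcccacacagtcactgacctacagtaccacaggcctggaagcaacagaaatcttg
Stx3, chr19:11813136-11813336: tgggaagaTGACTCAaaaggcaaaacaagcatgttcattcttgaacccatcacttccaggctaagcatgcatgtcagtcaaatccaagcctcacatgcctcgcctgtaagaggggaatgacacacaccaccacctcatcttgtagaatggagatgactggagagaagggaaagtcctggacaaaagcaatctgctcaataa
Ctns, chr11:73193125-73193325: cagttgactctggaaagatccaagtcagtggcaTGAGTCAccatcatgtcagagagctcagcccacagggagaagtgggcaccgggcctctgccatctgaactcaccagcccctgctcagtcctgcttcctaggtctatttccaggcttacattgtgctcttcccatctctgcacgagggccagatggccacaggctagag
Tex44, chr1:86470689-86470889: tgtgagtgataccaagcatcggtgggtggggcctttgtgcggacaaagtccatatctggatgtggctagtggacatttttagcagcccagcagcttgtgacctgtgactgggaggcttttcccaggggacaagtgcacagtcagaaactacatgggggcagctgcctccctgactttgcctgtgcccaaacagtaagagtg
Rpusd4, chr9:35305311-35305511: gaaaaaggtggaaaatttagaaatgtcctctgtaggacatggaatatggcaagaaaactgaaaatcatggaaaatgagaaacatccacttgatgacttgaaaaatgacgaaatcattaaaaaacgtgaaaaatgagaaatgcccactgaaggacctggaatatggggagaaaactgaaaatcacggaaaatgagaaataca

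The lists differed in depth, and some stand apart. Depth, recovered from the fold and p-value columns as background reads per kb, ranged from 0.382 to 9.75, and 3 lists were under 1. WT at 1 h replicate 1-2 was the shallowest, and KO at 18 h replicate 1 placed many top sites far lower than every other list. The shortest peak of the latter was 66 bp, against 152 to 219 bp in the other lists. Depth was computed over the shortest peak, so the 1.59 reads per kb of this list rest on that length. Of the distal sites in 16 lists, 497 were missing only from KO 18 h replicate 1 and 347 only from WT 1 h replicate 1-2. Without either of these lists the members would number 4411 and 4261. The cell label was checked on markers. Of 18 macrophage markers, 8 had a member nearby and 15 had a promoter site in some list, whereas T cell (10 genes), B cell (8 genes) and erythroid (7 genes) markers had 0 members. Promoter sites in some list were also seen for 2 T cell, 1 B cell, 1 erythroid, 3 neutrophil and 4 fibroblast or endothelium markers, and of these the promoters of Gata3 (T cell) and Cdh5 (endothelium) had a peak in all 17 lists. The neutrophil list (8 genes) had 1 member, near Csf3r, and the fibroblast or endothelium list (10 genes) had 3, near Pdgfrb, Kdr and Pecam1.

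Constitutive distal sites lay mainly in introns and between genes. The summit fell in an intron of a protein-coding gene at 1712 sites (43.7%), between genes at 1617 (41.3%), in a coding exon at 54 (1.38%) and in a UTR at 73 (1.87%). The median distance to a protein-coding TSS was 17396.5 bp (quartiles 7092.75 and 39805.5 bp), and 423 sites (10.8%) lay within 1000 bp of the start of a gene that is not protein-coding, most often a lincRNA (154 sites). Merged sites were 1433.5 bp wide at the median. The median over sites of the mean rank was 7752.66, with quartiles of 4821.58 and 10626.

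The sites were spread over 2792 nearest genes, of which 2046 had 1 site and 81 had 4 or more. Cebpb and Zmiz1 had 9 each, the highest number. Cebpb encodes C/EBPb, a macrophage factor that LPS induces, and its sites extended over 99.346 kb, most of them downstream of the gene. Zmiz1, a transcriptional coregulator, had 9 sites over 153.76 kb. Tns3, a focal adhesion protein, had 8, and Tomm20, Nav1 and the phagocytosis checkpoint gene Cd47 had 7 each. Jarid2, Irf2bpl, Trib1, Smad3 and Ptk2b followed with 6.

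A member changed rank over the lists by a median factor of 4.21 between its best and worst list (quartiles 3.00 and 6.71). Within a group the SD of log2 rank was 0.404 at the median member. This spread was wider near the top of the lists, with a median SD of 0.559 in the 783 members of best mean rank and 0.317 in the 783 of worst. Members reached the best 1000 of some list at 557 sites and the best 1000 of every list at 22 sites. At the edge of the rule, the members with the worst rank in any list lay near Rpl31 (24376.5), Cxcr1 (24356) and Cflar (24356). The sites near Vac14, Gbp2b and Syde2 missed the rule by the least, with ranks of 24394, 24396 and 24406 in the 1 list that left them out.

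Several of the best-ranked members were narrow or matched repeated sequence. First was chr17:39842996-39848830, a site of 5835 bp over the ribosomal RNA locus that also holds the non-coding gene Gm26917. It had rank 1 in 15 lists, rank 3 in KO 18 h replicate 1 and rank 2 in KO 18 h replicate 3. Next came an intergenic site 88698 bp downstream of Axin2 and one 109847 bp from Gm8797, with mean ranks between 2 and 5. In the window of 201 bases, 5 of the best 20 members matched 2 or more places in the genome, and 9 of the 20 were under 600 bp wide. Over all members these counts were 37 and 17 of 3914. The other 3814 members beyond the best 100 held 32 such repeats and 8 such narrow sites.

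The list that stands apart moved these sites most. The Limd1 site, in a UTR of Lars2, had rank 150.5 in KO 18 h replicate 1 and ranks from 3 to 5 in the other 16 lists. The Cdk8 site, in an intron of the gene for a Mediator kinase, had rank 109.5 there and ranks from 6 to 9 elsewhere. Their 18 h values were −0.89 ± 0.65 (SE) and −1.03 ± 0.546, and neither passed the test (limma adjusted p = 0.377 and 0.2).

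The Rpusd4 site differed between times. It lies at chr9:35305215-35305591 in an intron of the non-coding gene Gm33838, 37546 bp from Rpusd4, which encodes a pseudouridine synthase. Its window was soft-masked over 100% of its length and had 10 copies, and its letters are those of the mouse major satellite. At 0 h its ranks were 306.5, 96 and 521.5 in WT and 525.5, 14 and 12 in KO. At 1 h they were 7.5 and 9 in WT and 11, 7 and 12.5 in KO. After 18 h they were 8, 6 and 4 in WT and 4, 3 and 4 in KO. Thus all 6 lists at 18 h were above all 6 at 0 h, while at 0 h the KO lists were far apart. The 18 h shift was +4.52 (limma adjusted p = 5.48e-05). The 1 h call did not hold with depth as a term (limma adjusted p = 0.14). Reads from repeats map to several places, and the part of mapping in this shift was not tested.

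The sequence content of the members was compared with that of other sites. Motif letters were sought on either strand, up to 100 bp from the summit, as a description and not as proof of binding. The summit was that of the list that ranked the site best, so the ranks that gave the calls also placed the windows. AP-1 letters occurred in 26.8% of members (1048 of 3914, 95% Wilson interval 25.4 to 28.2%), in 20.7% of the 19180 other distal sites seen in 2 or more lists and in 3.74% of the 6490 constitutive promoter sites. C/EBP letters (TTACNNAA or TTGCNNAA) occurred in 20.6%, 20.9% and 8.01% of the same sets. For PU.1 (GAGGAAGT) the shares were 10.2%, 9.62% and 3.20%. NF-kB letters were in 5.62%, 5.04% and 3.91%.

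Letters of CTCF, the insulator protein, were rarer in members than in other distal sites. They occurred in 1.69% of members (interval 1.33 to 2.14%), in 3.97% of other distal sites (interval 3.71 to 4.26%) and in 0.524% of constitutive promoter sites. The ISRE, read by interferon regulatory factors, was in 3.58%, 4.46% and 1.86%. RUNX letters (TGTGGTTT) were in 3.76%, 3.56% and 0.786%. The NBRE (AAAGGTCA), the monomer element of Nur77, was in 1.35% of members, 1.24% of other distal sites and 0.555% of promoter sites. MITF/TFE letters (CACGTGAC) were in 1.30%, 0.996% and 3.67%. None of the 9 motifs was found in 42.6% of members, 44.1% of other distal sites and 76.6% of promoter sites. Few of these matches shared bases, the most being 4 members with AP-1 and PU.1. GC content was 51.2% at the median member, 49.3% at other distal sites and 63.7% at constitutive promoters.

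LPS for 1 h moved constitutive distal sites up the lists more often than down. Among the 3914 members, 946 (24.2%) moved nearer the top and 539 (13.8%) moved further down, against 12.2% and 15.2% of all 10404 sites tested. The constitutive promoter sites had 321 (4.95%) up and 1042 (16.1%) down. The median shift was +0.0965 over members, −0.194 over all tested sites and −0.308 over promoter sites. In each list the median member rank was 7858.5 to 8362.5 at 0 h, 6958.5 to 7527 at 1 h and 7299 to 8136.5 at 18 h. The lists at 1 h therefore did not overlap those at 0 h, and those at 18 h did.

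When a call also required that no list at 1 h overlapped the 0 h lists of its genotype, 720 members (18.4%) were up and 367 (9.38%) down, against 9.18% and 9.86% of all tested sites. Lists at 1 h were on the whole shallower than those at 0 h. With log2 depth as a term, 640 members (16.4%) were up and 247 (6.31%) down, against 7.89% and 5.01% of all tested sites. With fold in place of rank the median over all tested sites was −0.047, and the split was 1156 (29.5%) up and 413 (10.6%) down, against 14.5% and 11.4%.

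**Figure D2:**
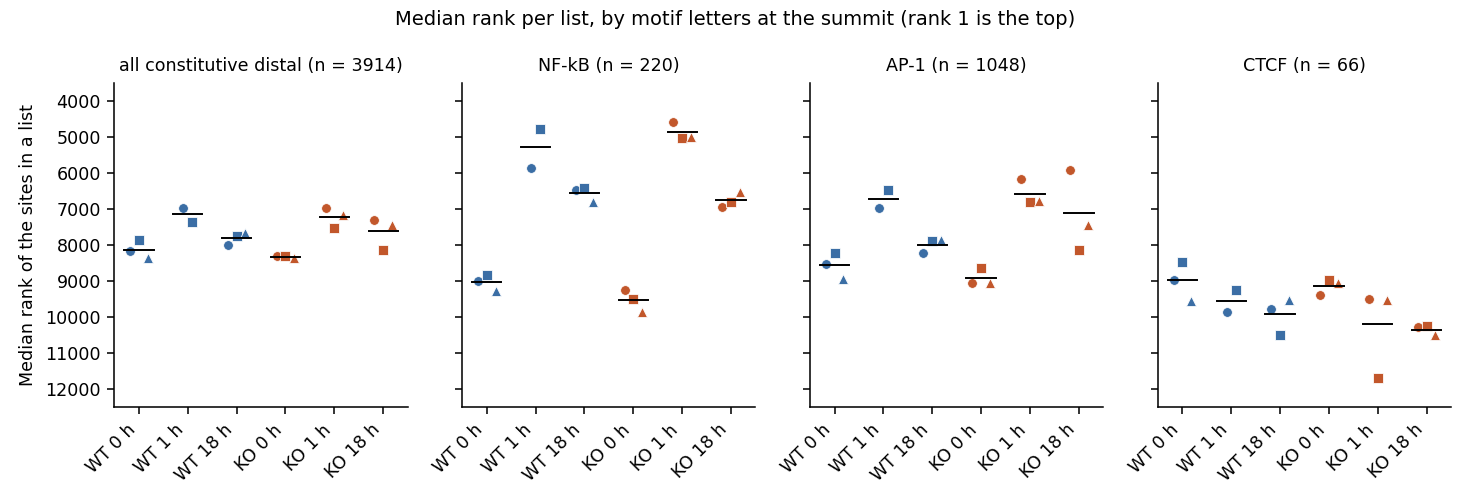
Median rank in each of the 17 lists (vertical axis, reversed so that the top is strong accessibility), grouped by genotype and time of LPS, for all constitutive distal sites and for those with NF-kB, AP-1 or CTCF letters. Points are lists, marked by replicate, and bars are the geometric mean of a group. The members with NF-kB letters had medians of 8836 to 9858.5 at 0 h, 4590 to 5848.5 at 1 h and 6414.25 to 6933 at 18 h.

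By 18 h the difference was smaller. Members called up numbered 676 (17.3%) and those called down 462 (11.8%), against 9.08% and 9.88% of all tested sites. Calls that also required lists without overlap were 448 up (11.4%) and 335 down (8.56%), against 5.89% and 6.5%. The median shift was +0.0866 over members and −0.064 over all tested sites.

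The calls at the 2 times joined into several patterns. Both times were up at 325 members (8.30%, against 3.86% of all tested sites) and both down at 168 (4.29%, against 3.75%). Up at 1 h only were 569 members (14.5%, against 7.61%) and down at 1 h only 351 (8.97%, against 11.1%). At 18 h only, 331 were up (8.46%, against 4.87%) and 242 down (6.18%, against 5.43%). Direction turned at 72 members (1.84%, against 1.05%), of which 52 went up and then down and 20 down and then up. Neither time passed the test at 1856 members (47.4%, against 62.3%). Both times were compared with the same 0 h lists, so the counts are not independent.

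**Figure D3:**
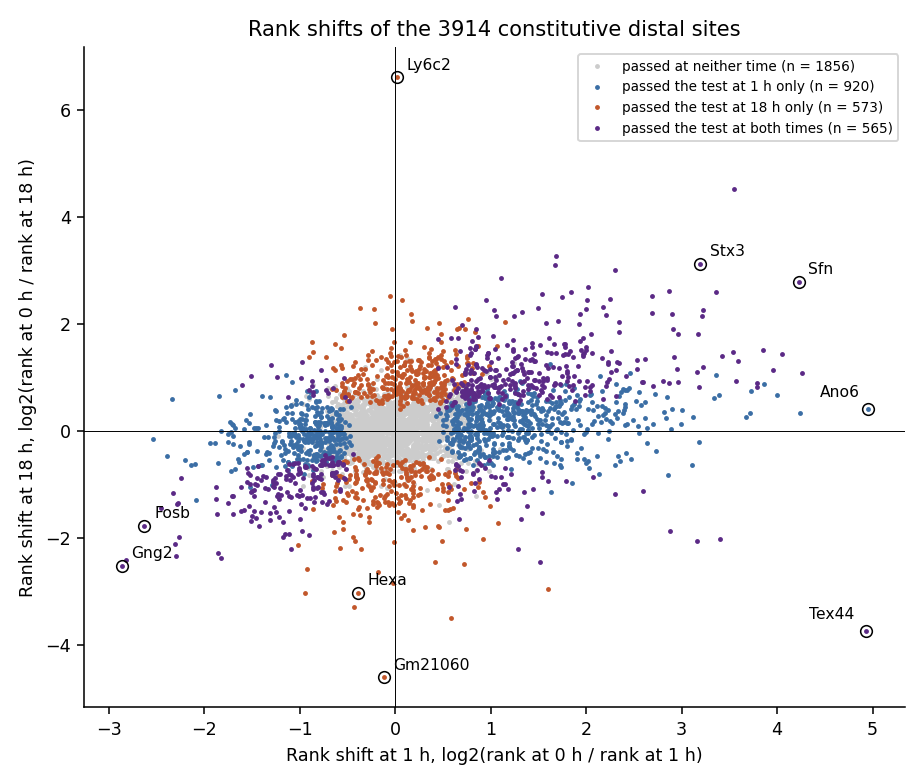
Rank shift at 18 h (vertical axis, log2) against rank shift at 1 h (horizontal axis, log2) for the 3914 constitutive distal sites, both against the same 0 h lists, with points marked by call. Ly6c2 stands highest at 18 h (+6.62), and Tex44 lies at +4.93 at 1 h and −3.75 at 18 h.

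Since the window came from the list that ranked a site best, motif class and call are not independent. Of the 9 motif classes, members with NF-kB letters were called up most often at 1 h. Of 220 such members, 119 (54.1%) moved up and 6 (2.73%) moved down, against 12.2% and 15.2% of all tested sites and 24.2% and 13.8% of all members. Of the 474 tested sites with NF-kB letters, promoters included, 36.1% moved up. The shares called up were 33.0% for AP-1, 32.9% for ISRE, 30.2% for the NBRE (16 of 53), 25.2% for RUNX and 24.4% for C/EBP. They were 19.4% for members with none of the motifs, 16.7% for PU.1, 15.7% for MITF/TFE and 6.06% for CTCF (4 of 66), with 24.2% for all members. Thus NF-kB members were called up more than 2 times as often as members as a whole. With depth as a term the NF-kB share was 44.1%, the AP-1 share 22.8% and the CTCF share 3.03%, when 16.4% of all members and 7.89% of all tested sites were called up. Without the 3 lists under 1 background read per kb they were 54.5%, 27.0% and 4.55%, against 19.5% of all members and 9.62% of all tested sites.

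At members that held both NF-kB and AP-1 letters, 39 of 66 (59.1%) moved up at 1 h. With NF-kB letters alone the share was 51.9% (80 of 154), with AP-1 letters alone 31.3% (307 of 982) and with neither 19.2% (520 of 2712). At 18 h the shares called up were 31.4% for NF-kB, 25.7% for ISRE, 23.5% for C/EBP and 22.0% for AP-1, against 17.3% of all members and 9.08% of all tested sites. CTCF members were called up at 3.03% and NBRE members at 13.2% (7 of 53). PU.1 members had 15.2% up and 12.7% down at that time.

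**Figure D4:**
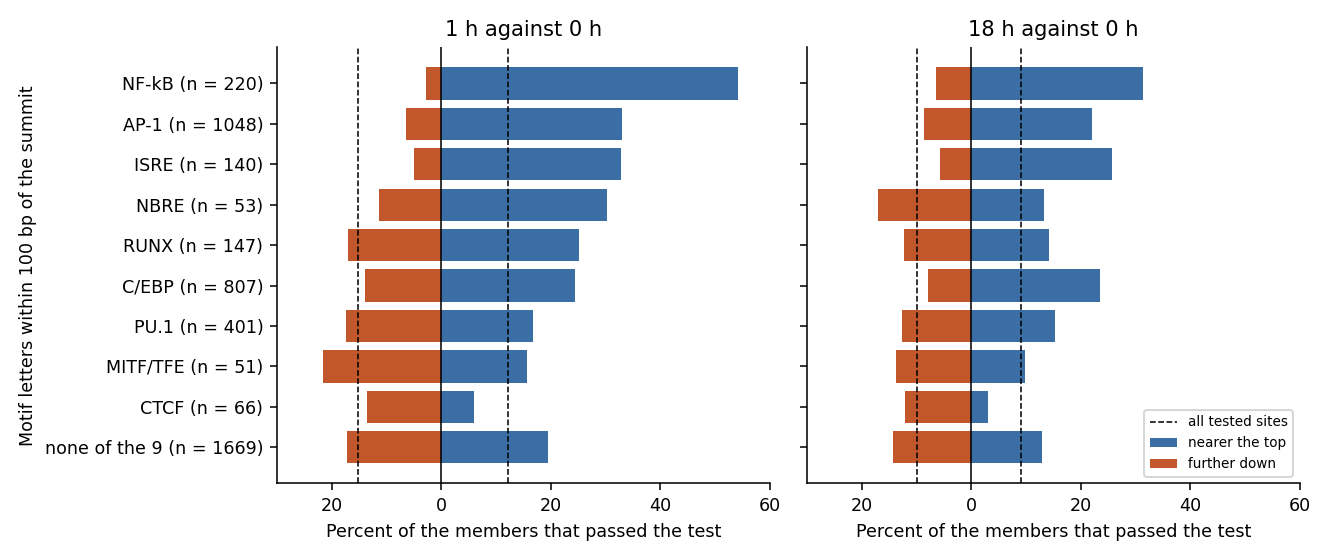
Share of members called nearer the top or further down (horizontal axis, percent) by motif letters within 100 bp of the summit, at 1 h and 18 h of LPS. At 1 h the bar for NF-kB reaches 54.1% up and that for CTCF 6.06%.

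Among the largest gains at 1 h was the Sfn site at chr4:133613499-133615860, 12396 bp upstream of the gene for 14-3-3 sigma and in an intron of the palmitoyltransferase gene Zdhhc18, shown above with NF-kB and AP-1 letters. Its ranks at 0 h were 989.5, 989 and 1837 in WT and 666, 1061 and 459 in KO. One hour of LPS brought it to 57 and 53.5 in WT and 33, 63 and 39 in KO. At 18 h it was at 105, 136.5 and 71.5 in WT and 92, 457.5 and 125.5 in KO. Each LPS list of a genotype was above all its 0 h lists. The shift was +4.22 ± 0.489 (SE, limma adjusted p = 6.29e-07) at 1 h and +2.79 ± 0.461 (adjusted p = 0.000116) at 18 h.

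The Rab11fip4 site, in an intron of a gene for an effector of Rab11 in endosome recycling, rose at 1 h. It ranked at 11425, 10723.5 and 11387 in WT and at 11097, 9687 and 9858.5 in KO at 0 h. After 1 h it ranked at 1894.5 and 286 in WT and at 485.5, 667.5 and 252.5 in KO. The 18 h ranks were 10016.5, 7201.5 and 6172.5 in WT and 10273, 9784.5 and 7950.5 in KO. Lists at 1 h stood clear of the 0 h lists in both genotypes, and in KO those at 18 h overlapped them. The 1 h shift was +4.24 ± 0.36 (limma adjusted p = 1.28e-08) and the 18 h value +0.34 (adjusted p = 0.528).

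Other members with the same course at 1 h were found in introns of Ano6, a phospholipid scramblase (+4.95), Ahnak2 (+4.26), Rapgef2, an exchange factor for Rap1 (+4.05), and Sgk1, a serum-induced kinase (+3.85). The site named for Xirp1 (+4.0) lies in an intron of Cx3cr1, the fractalkine receptor. The Fgd2 site (+3.96) and the site 2022 bp upstream of Helz2, an interferon-induced coactivator (+3.86), lay between genes. All 7 passed the test with adjusted p-values at or under 3.29e-07. At 18 h, Sgk1 (+1.51), Rapgef2 (+1.44), Fgd2 (+1.14) and Ahnak2 (+1.08) still passed it.

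The Tex44 site turned direction most strongly. It lies at chr1:86470212-86473182 between genes, 44460 bp from Tex44, a gene named for its expression in testis. Ranks at 0 h were 1225.5, 714.5 and 1102.5 in WT and 957, 888.5 and 1183 in KO. At 1 h they were 57 and 53.5 in WT and 25, 14.5 and 20 in KO, among the best of each list. At 18 h they had dropped to 11998.5, 12154.5 and 10987.5 in WT and 20182, 17941.5 and 9746 in KO. No lists of different times overlapped. The shift was +4.93 ± 0.356 at 1 h (limma adjusted p = 6.86e-10) and −3.75 ± 0.335 at 18 h (adjusted p = 6.58e-08).

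**Figure D5:**
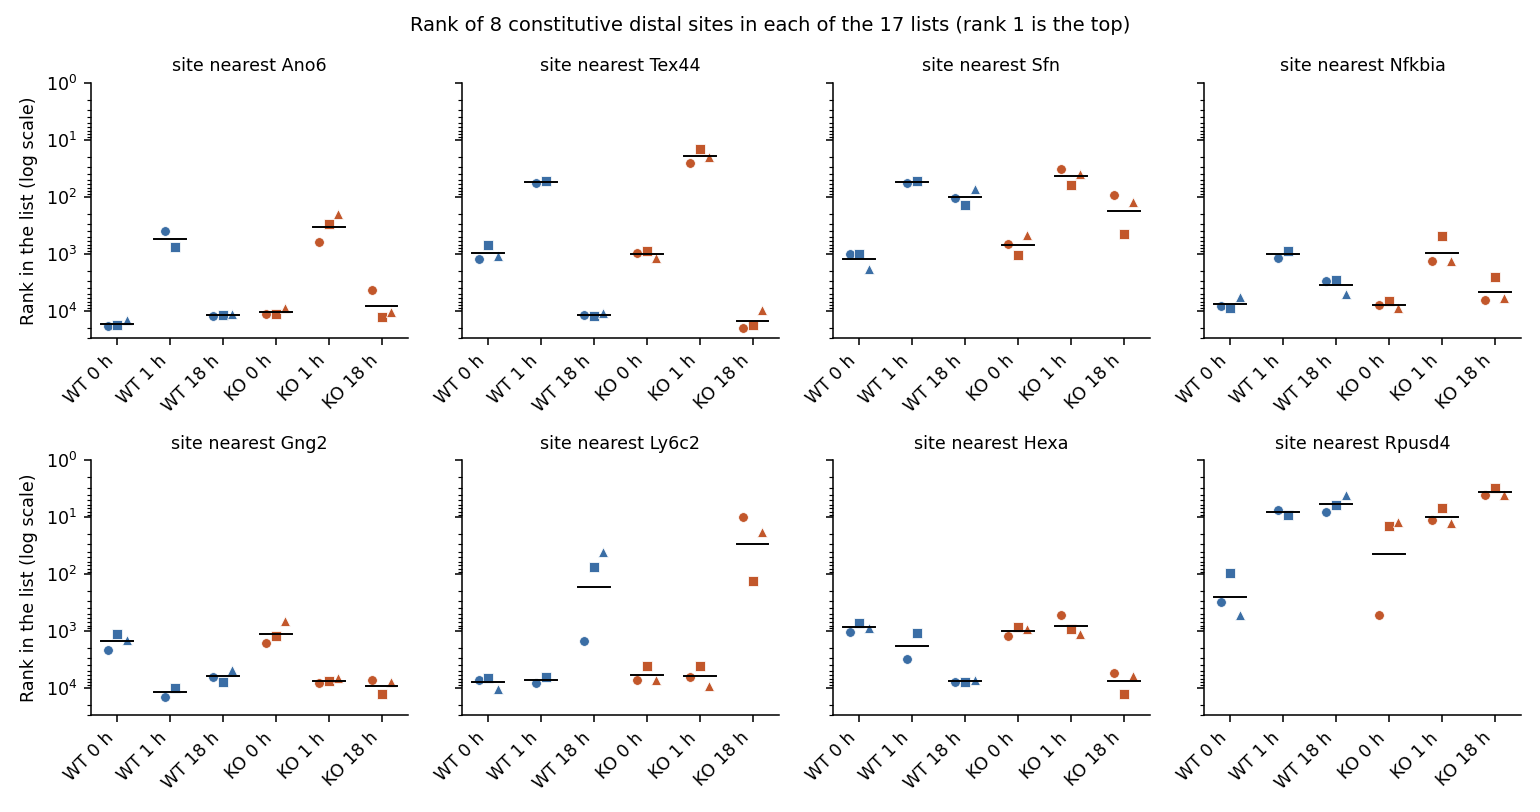
Ranks (vertical axis, log scale, reversed) of selected members in every list, grouped by genotype and time of LPS, with 1 panel for each site. Points are lists, marked by replicate, and bars are the geometric mean of a group. The Tex44 panel rises to ranks of 14.5 to 57 at 1 h and drops to 9746 or beyond at 18 h.

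Losses at 1 h were smaller than the largest gains. The Gng2 site, 7672 bp upstream of a G protein gamma subunit, had ranks of 2121, 1139.5 and 1453 in WT and 1647.5, 1239 and 657 in KO at 0 h. At 1 h the ranks were 14417.5 and 9880.5 in WT and 8153.5, 7527 and 6785 in KO. They were 6402, 7738 and 4788 in WT and 7299, 12930.5 and 7950.5 in KO at 18 h. All lists with LPS lay below all lists without it. The shifts were −2.87 ± 0.288 (limma adjusted p = 8.93e-08) and −2.53 ± 0.271 (adjusted p = 4.39e-07).

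Further losses at 1 h lay near Naa20, an N-terminal acetyltransferase subunit (−2.82), and near Fosb, an AP-1 subunit (−2.63). P2ry6, a receptor for UDP, held one in an intron (−2.53), and the site near Gsdmd, the pore protein of pyroptosis, had −2.34. The sites of P2ry6 and Gsdmd had 18 h values of −0.15 and +0.59, which did not pass the test, whereas those of Gng2, Naa20 and Fosb were called down at both times. For Fosb the 18 h call was lost in the exact permutation test (adjusted p = 0.053). This test is coarse, since at 18 h its smallest possible p was 0.005 and its smallest adjusted p 0.035.

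The largest gain at 18 h was near Ly6c2, which encodes the Ly6C antigen of inflammatory monocytes. The site lies between genes at chr15:75085499-75087046. It was at 7305, 6564.5 and 10303.5 in WT and at 7123.5, 4076.5 and 7108.5 in KO at 0 h. The 1 h lists placed it at 8262.5 and 6480 in WT and at 6503.5, 4084.5 and 9266 in KO. At 18 h it was at 1512.5, 73.5 and 41.5 in WT and at 10, 133 and 18.5 in KO. The 1 h lists overlapped the 0 h lists and the 18 h lists did not. The 18 h shift was +6.62 ± 0.644 (limma adjusted p = 1.2e-07), and the 1 h value was +0.01 (adjusted p = 0.991).

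Among the sites that gained most at 18 h was the Traf2 site. This site, with NF-kB letters at 2 places in the window, lies in an intron of the gene for an adaptor of TNF receptors. Before LPS its ranks were 10472, 11122.5 and 12498 in WT and 10184, 15343 and 10715 in KO. With LPS they were 9849.5 and 2764 in WT and 3340, 2689 and 1814.5 in KO at 1 h. They reached 1215, 1164.5 and 1327.5 in WT and 2769.5, 882.5 and 1304.5 in KO at 18 h. Only WT 1 h replicate 1-2, the shallowest list, came near the 0 h range. The shifts were +1.67 ± 0.333 (limma adjusted p = 0.000548) and +3.11 ± 0.314 (adjusted p = 2.05e-07).

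Stx3, a syntaxin of membrane fusion, held a site that gained at both times (+3.19 and +3.12). Its 6 ranks at 0 h lay between 10992.5 and 14705, those at 1 h between 708.5 and 2762 and those at 18 h between 756.5 and 2485.5. The Batf site 24132 bp downstream of this AP-1 family gene rose by +2.30 and +3.02. Sites near Zcchc4 (+2.87 at 18 h), Eya3 (+2.69) and Nfat5, the factor of osmotic stress (+2.61), were also called up at both times.

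The Ctns and Hexa sites were among those that lost most at 18 h. Ctns encodes the lysosomal cystine exporter, and the site in its intron, shown above with AP-1 letters, had ranks of 1764, 2073 and 2814.5 in WT and 1965, 1678 and 1780 in KO at 0 h. At 1 h the ranks were 1894.5 and 1634.5 in WT and 2331.5, 3320.5 and 1562.5 in KO. At 18 h they were 14041, 13206.5 and 10700.5 in WT and 20182, 23136.5 and 9081.5 in KO, below every earlier list. The 18 h shift was −2.85 ± 0.271 (limma adjusted p = 8.81e-08) and the 1 h value −0.02 (adjusted p = 0.967).

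Hexa, a subunit of the lysosomal hexosaminidase, held an intronic site with the same course (1 h −0.39, adjusted p = 0.43, and 18 h −3.04, adjusted p = 4.83e-07, limma). Cd300e, a receptor of myeloid cells, had a site with an 18 h shift of −2.63. The lowest 18 h value was at the site named for Gm21060 (−4.61), among the best 200 of every list at 0 h and 1 h. Tex44 (−3.75) followed, then Gtpbp4 (−3.50), a gene of ribosome assembly, and Rpp21 (−3.30), a subunit of RNase P. Txndc11 (−3.03) lost rank at a site with 2 copies over the non-coding gene Gm23935.

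Members near genes of named pathways were counted by lists. For these counts, the shares called up were 24.2% of all members and 12.2% of all tested sites at 1 h, and 17.3% and 9.08% at 18 h. The shares called down were 13.8% and 15.2% at 1 h, and 11.8% and 9.88% at 18 h. In the list of LPS-induced cytokines and chemokines, 8 of 28 genes had 9 members, of which 7 (77.8%) were up and 0 down at 1 h and 3 (33.3%) up and 0 down at 18 h. For TLR4 and NF-kB signaling, 9 of 27 genes had 15 members, with 8 (53.3%) up and 0 down at 1 h and 6 (40%) up and 0 down at 18 h. Median 1 h shifts were +1.08 and +0.72 in these lists, against +0.0965 for all members.

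For Il1a, the site 28498 bp upstream of this alarmin gene ranked at 4749, 3503 and 5377.5 in WT and at 4015, 1955.5 and 2849 in KO at 0 h. At 1 h it ranked at 595.5 and 307 in WT and at 645, 490.5 and 324 in KO. By 18 h it ranked at 3785.5, 4265 and 2887.5 in WT and 3311.5, 3038 and 2568 in KO. The 1 h shift was +2.99 ± 0.326 (limma adjusted p = 2.72e-07) and the 18 h value +0.12 (adjusted p = 0.821). The Ccl2 site, near a monocyte chemokine, had +2.70 and +0.12, and the Il1b site +1.45 and +0.32. Nfkbia, which encodes the NF-kB inhibitor, had +2.97 at 1 h and +0.91 at 18 h at its best-ranked site, the latter lost with depth as a term (adjusted p = 0.054). Tnip1, a partner of the NF-kB inhibitor A20, had +2.25 and +2.46.

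Macrophage lineage factors had the most members, with 43 sites at 16 of 24 genes. At 1 h 19 (44.2%) were up and 2 (4.65%) down, and at 18 h 13 (30.2%) were up and 3 (6.98%) down. Of all members, 24.2% were up and 13.8% down at 1 h, and 17.3% and 11.8% at 18 h. The best-ranked Cebpb site, 88798 bp downstream, had ranks of 2721, 2931 and 1976.5 in WT and 2462.5, 2535 and 2849 in KO at 0 h. It had ranks of 708.5 and 220.5 in WT and 185, 96.5 and 213 in KO at 1 h. Ranks were 650.5, 772 and 1013.5 in WT at 18 h and 5345.5, 1185.5 and 1092 in KO, with KO replicate 1 alone below the 0 h range. The 1 h shift was +3.36 ± 0.438 (limma adjusted p = 3.1e-06), and the 18 h value of +1.05 did not pass the test (adjusted p = 0.0772).

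Over all 9 Cebpb sites, 4 were up at 1 h and 5 at 18 h, with 0 down. At Klf6, a zinc finger factor, 5 of 5 sites were up at 1 h, with shifts from +0.75 to +2.16. Nav1, a gene of the cytoskeleton, had 0 of 7 up and 4 of 7 down at that time. Over all tested sites 12.2% were up and 15.2% down at 1 h, and 9.08% up at 18 h, and with so few sites a gene the counts are a description.

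The interferon response list had 16 members at 9 of 22 genes, with 5 (31.2%) up and 2 (12.5%) down at 1 h and 5 up and 1 (6.25%) down at 18 h. The 1 h shares lay near those of all members, 24.2% and 13.8%. Socs3, which restrains cytokine receptors, had a site 22435 bp downstream that ranked at 5845, 4679 and 5853.5 in WT and at 4842.5, 6139 and 6079 in KO at 0 h. One hour later it was at 595.5 and 329.5 in WT and at 823.5, 347.5 and 475 in KO. By 18 h it was at 1410, 1513.5 and 1327.5 in WT and at 5924.5, 2385 and 1580 in KO, where KO replicate 1 again lay in the 0 h range. The shifts were +3.54 ± 0.355 (limma adjusted p = 8.93e-08) and +1.47 ± 0.335 (adjusted p = 0.00264). The latter was lost in the exact permutation test (adjusted p = 0.053), which is coarse, with a smallest adjusted p of 0.035 at 18 h. Socs1 had +2.95 at 1 h, and Ifnar2, a subunit of the type I interferon receptor, had −1.55.

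In the remaining lists the members called up at 1 h were 10 to 25% of a list, near or below the 24.2% of all members, and 12.2% of all tested sites were called. The AP-1 family had 20 members with 4 up and 4 down at 1 h and 5 up and 4 down at 18 h. Signal brakes and NR4A genes had 20 members, with 5 up and 5 down and then 3 up and 3 down. Dusp6, a phosphatase of ERK, had −1.48 and −1.10, and Egr3 had −2.08 at 1 h, a call lost with depth as a term (adjusted p = 0.24). Lysosome and phagocytosis genes had 23 members, with 4 up and 2 down and then 2 up and 4 down. Ctsd, a lysosomal protease, had −1.40 at 1 h. Lipid and cholesterol genes had 10 members, with 1 up and 2 down and then 2 up and 1 down.

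Few members differed in rank between KO and WT. Of 3914, 10 (0.255%) were nearer the top in KO and 7 (0.179%) further down, against 0.163% and 0.0865% of all tested sites. The median difference was +0.0114 over members and −0.0437 over all tested sites. With fold in place of rank the calls were 13 up (0.332%) and 3 down (0.0766%), against 0.211% and 0.0481% of all tested sites. The KO lists were on the whole shallower than the WT lists. The number called was 7 with depth as a term, 6 up (0.153%) and 1 down (0.0255%), against 0.106% and 0.0192% of all tested sites. Without the 3 lists under 1 background read per kb it was 8, 6 up (0.153%) and 2 down (0.0511%), against 0.0961% and 0.0481%. The exact permutation test called 0, but at its smallest possible p of 0.00025 a call needed 53 sites at that p, so this number says little about the calls. Single lists moved it too. Calls rose to 31 when KO 18 h replicate 1 was left out and to 26 when WT 1 h replicate 3 was, and 6 remained after WT 0 h replicate 2 was dropped. They numbered 8 without WT 1 h replicate 1-2 or WT 18 h replicate 1, 9 without WT 18 h replicate 2 or 3, 10 without WT 0 h replicate 1 or 3 and 11 without KO 0 h replicate 2.

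The Tmem267 site, in an intron of a gene for a membrane protein, had the smallest p-value. Its ranks in WT were 7237, 8732 and 9001.5 at 0 h, 3594.5 and 2013 at 1 h, and 13860.5, 10590.5 and 9390.5 at 18 h. In KO they were 2547.5, 1955.5 and 3087.5, then 424, 601.5 and 383, then 3640, 6804 and 4714.5. KO lists lay above WT lists at each time, and the difference was +1.82 ± 0.225 (limma adjusted p = 6.43e-05). The Ide site, in an intron of the gene for insulin-degrading enzyme, had +1.57 ± 0.237 (adjusted p = 0.00102), and a site on chromosome Y near Gm21860 had +1.93 ± 0.273 (adjusted p = 0.000521). The Prag1 site had +1.24, a call lost without the shallow lists (adjusted p = 0.07).

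Among the members further down in KO, the Slc38a1 site lies in an intron of a glutamine transporter gene on chromosome 15. In WT it ranked at 3063, 3039.5 and 3037, then at 108 and 272, then at 2265.5, 2143.5 and 2593.5. In KO it ranked at 9561.5, 9687 and 8354.5, then at 959, 922.5 and 713.5, then at 3640, 4150 and 2733. All KO lists lay below the WT lists of the same time. The difference was −1.50 ± 0.244 (limma adjusted p = 0.003), while LPS moved the site up at 1 h by +3.79 on average over the genotypes. Mindy1 (−1.46), a deubiquitinase, and Apbb1ip (−1.03), an adaptor of integrin activation, were lost as calls with depth as a term (adjusted p = 0.33 and 0.1), as were the sites named for Olfml2b (−1.21), in a UTR of Atf6, and Pigm (−1.0) (adjusted p = 0.22 and 0.18). Nr4a1 is on chromosome 15 as well, which held 177 of the 3914 members and 3 of the 17 called, while chromosome 3 held 184 members and 4 called. Within 1000 kb of Nr4a1 there were 15 members, of which 1 (6.67%) was called, 9472 bp upstream of Krt75 (+0.94). This call was lost with depth as a term (adjusted p = 0.10) and without the shallow lists (adjusted p = 0.32). Within 5000 kb there were 39 members and 2 called (5.13%), the sites near Krt75 and Slc38a1, against 0.434% of all members and 0.25% of all tested sites. With counts of 1 and 2 this is a description.

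Nr4a1 itself had 2 members upstream and Nr4a2 and Nr4a3 had 0. The site 7807 bp upstream ranked at 2397.5, 2487 and 2375 in WT and at 1269.5, 1556.5 and 2082 in KO at 0 h. At 1 h it ranked at 8262.5 and 1707 in WT and at 1341.5, 3320.5 and 1814.5 in KO. The 18 h ranks were 1717.5, 1684.5 and 1909 in WT and 4839, 5269 and 1580 in KO. At 0 h the KO lists stood above the WT lists, and at 1 h and 18 h they overlapped. The difference over all times was +0.18 ± 0.316 (limma adjusted p = 0.889), and that of the site 13291 bp upstream was +0.57 ± 0.177 (adjusted p = 0.33). These sites lie outside the gene, so they do not check the deletion.

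No member had a KO response to LPS that differed from WT past the threshold. Members called in either direction, and all tested sites called, numbered 0 (0%) at 1 h and 0 (0%) at 18 h with limma. The smallest adjusted p-values were 0.652 and 0.807, and 231 and 168 members had an unadjusted p-value under 0.05. Without WT 1 h replicate 3 there were 10 calls at 1 h, but WT at 1 h was then the shallowest list alone, taken to vary like the lists of the other groups. The median 1 h shift of members was +0.0516 in WT and +0.125 in KO, and the median 18 h shift was +0.0562 and +0.110. Over all tested sites the same medians were −0.202 and −0.158 at 1 h and +0.0039 and −0.126 at 18 h. A p-value that misses the threshold does not show that the genotypes respond alike.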

How the data were processed

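ATAC-seq peak lists of 17 samples were used. The authors trimmed reads with cutadapt 2.6, mapped them to mm10 with the snakeATAC workflow, removed mitochondrial and duplicate reads, called peaks in each sample at a q-value threshold of 0.001, and compared samples with DiffBind 3.0.15. The deposited fold is the ratio of pileup to background at a summit, the deposited p-values and q-values are given as −log10, and the deposited score is 10 times the −log10 q-value. These values depend on depth, so only their order inside a list was compared, and the count-based comparison was not refitted. Depth was recovered as background reads per kb from the fold and p-value columns, and at the last kept peak a list rested on 3 to 69 reads. Intervals and depths cover counting error only.

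Identical intervals were collapsed to the smallest p-value, and ties at the end of a kept list, up to 13.9% of it, were broken by fold, chromosome and start. Promoters came from GENCODE annotation and sequence from the RefSeq FASTA of GRCm38. Ranks on a log2 scale were fitted with limma 3.58.1 (R 4.3.3) with a trend, 6 group means and 10404 sites. The fit was tested on simulated data with known 1 h shifts. It called 12 of 42 sites given a shift of +1 (28.6%) and 28 of 54 given −1 (51.9%). Of those given +2 and −2 it called 54 of 55 and 48 of 49, and of 10204 sites without a shift it called 1. Alternatives were other list lengths, TSS distances, scalings, depth as a term, the replicate number as a block, single lists left out and exact permutation tests over lists.

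Members and gene lists were chosen with earlier results of these data known. Named sites were those with the 10 best mean ranks, the 10 largest called shifts per time and direction without overlap of lists, the 5 largest called KO differences per direction, the best site of each listed gene, the genes with most sites, the sites nearest to the rule's edge, and the Nr4a genes. The text gives a selection of these sites.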

Additional observations from a re-analysis of the deposited data

Results flagged for a closer look

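All named sites were searched at both times for lists that separated from 0 h in opposite directions in the genotypes. The share of all tested sites with this pattern was not counted. The only named case was the site 53972 bp upstream of Jun, an AP-1 subunit, at 1 h. At 0 h its ranks were 6416.5, 5110.5 and 6741.5 in WT and 6066, 5697.5 and 3087.5 in KO. At 1 h they were 4926 and 3708 in WT and 6613, 10441 and 6785 in KO. Every WT list at 1 h was above the WT lists at 0 h and every KO list below the KO lists at 0 h, with shifts of +0.50 in WT and −0.71 in KO. The difference of shifts was −1.21 (limma adjusted p = 0.892), which did not pass the test over all 10404 sites.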

How the results depend on the processing

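The member number was 1862 with the best 15000 peaks of each list and 12 when every peak had to cover 50% of the merged site, and leaving out a list gave 3916 to 4411. Calls at 1 h numbered 649 and 3 under these choices and 887 with depth as a term. They numbered 1238 to 1870 with a list of any group but WT at 1 h left out. With the best 15000 peaks 25.5% of members were up and 9.34% down, against 10.6% and 11.9% of 6444 tested sites. With 50% cover 25% of the 12 members were up, against 23.5% of 17 tested sites, and 0 were down. Without WT 0 h replicate 3 the shares were 20.4% and 11.2%, against 10.1% and 10.7%. Without KO 18 h replicate 1 they were 29.2% and 18.6%, against 15.3% and 23.3%. At 18 h the best 15000 peaks gave 16.0043% of members up and 9.51% down, against 7.14% and 7.68% of tested sites. With 50% cover the shares were 16.7% and 33.3%, against 29.4% and 23.5%. Without WT 0 h replicate 1 they were 12.7% and 8.94%, against 6.51% and 7.05%. Without KO 18 h replicate 1 they were 21.4% and 14.2%, against 12.2% and 11.5%. Calls at 18 h numbered 475 with the best 15000 peaks and 6 with 50% cover, and 847 to 1391 with a list left out. For KO against WT they were 4 and 0, with 7 for depth, 7 for the replicate block, 8 without the 3 shallowest lists, 0 for exact permutation tests, which needed 53 sites at their smallest p for any call, and 6 to 31 with a list left out. Differences of response numbered 0 to 10 at 1 h with a list left out and 0 at 18 h. With the best 15000 peaks, KO against WT gave 0.107% of members up and 0.107% down, against 0.0931% and 0.0466% of tested sites. The median 1 h shift with these peaks was 0.192 over members and −0.183 over all tested sites. With 50% cover the median 18 h shift was −0.68 over the 12 members and −0.43 over the 17 tested sites. The median KO difference with that cover was −0.27 over members and −0.24 over tested sites.

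Within 50 bp of the summit fewer bases were searched, and the shares were 17.7% for AP-1, 11.2% for C/EBP, 5.72% for PU.1, 3.50% for NF-kB, 2.04% for ISRE, 1.99% for RUNX, 1.15% for CTCF, 0.613% for NBRE and 0.588% for MITF/TFE. With the best 15000 peaks they were 29.1% for AP-1, 19.1% for C/EBP and 1.24% for CTCF. With the replicate number as a block (WT replicate 1-2 left out), 1104 members were called at 1 h. Of these 760 were up (19.4%) and 344 down (8.79%), against 9.53% and 7.84% of all tested sites. At 18 h 1147 members were called, 17.4% up and 11.9% down, against 9.10% and 9.89%. Differences of response numbered 0. No called shift checked at a named site changed direction in an alternative that was run, but some calls were lost. At 1 h, 18 were lost and 41 held with depth as a term. With the block these numbers were 12 and 47, and without the 3 shallowest lists 11 and 48. At 18 h, in the same order, they were 4 and 45, 3 and 46, and 8 and 41. For KO against WT they were 5 and 5, 6 and 4, and 5 and 5. Deviations of same-numbered lists from their group means correlated by −0.279 to 0.252, and 5 of 35 pairs exceeded 0.1. For lists of other numbers the range was −0.334 to 0.473, and 14 of 85 pairs exceeded 0.1. Deviations cancel out within each small group, so these values cannot decide whether replicate numbers pair the samples. Random ties, chosen after seeing the data, gave 3900 members and 1485, 1143 and 18 calls.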
